A study of Mus musculus with 9 samples.

Results

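The Runx transcription factors and their shared partner were followed through single mouse ovaries with and without estrogen receptor β (ERβ). The 4 genes are Runx1, Runx2, Runx3 and Cbfb, taken by symbol from the 46078 genes of the count table, and all 4 were among the 16722 genes that passed the filter on low counts. The family was selected on measured values, the fold changes of Runx genes between WT and ERβKO in these same ovaries, so the differences of its members are given as a description, with no test.

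Whole ovaries of 5 WT and 4 ERβKO mice on the C57BL/6J strain gave 1 library of polyadenylated RNA each, and each sample is labelled untreated, although a protocol text shared by all samples in the labels tells of a high-fat diet and injections of the ERβ agonist DPN, and which mice that text covers is not given in the sources used here. The knockout allele came from ERβ flox mice (Esr2 tm1Gust) crossed with a Rosa26-Cre deleter line, so exon 3 of Esr2 was removed in the germline and therefore in every cell, not in granulosa cells alone. ERβKO mice were bred from heterozygous parents and the controls were offspring without Cre. The mice of the whole study were 4 to 20 weeks old, the age of single animals is not given in the sources used here, and no stage of the estrous cycle was chosen.

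The totals ran from 12353740 to 16519975 counts in WT and from 13088728 to 18717510 in ERβKO libraries. Esr2, counted over its whole length with the exons that the knockout allele keeps, had 12.4 to 23.9 FPKM in WT and 10.5 to 23.7 FPKM in ERβKO ovaries, so its count does not check the genotypes. On the first principal component of expression, which held 35.9% of the variance, WT replicate 2 stood at 9.43, nearer to the ERβKO ovaries (19.4 to 35.3) than the other 4 WT ovaries (-43.8 to -15.6). No marker of granulosa, theca, luteal, stromal, endothelial, epithelial or oocyte cells was at 0 in every ovary, which is a loose check. The theca marker Insl3 did not pass the filter on low counts. It was at 0 FPKM in WT replicate 3 and in ERβKO replicates 2, 3 and 4. In whole ovaries, fewer cells of a type and less RNA per cell cannot be told apart.

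RUNX1, RUNX2 and RUNX3 share the Runt domain, with which they bind DNA and also hold CBFβ, the product of Cbfb. CBFβ does not bind DNA itself but strengthens the binding of its partner and protects it from degradation. RUNX1 is best known from blood cell formation, RUNX2 from bone and cartilage, and RUNX3 from T cells and sensory neurons. In the ovary, Runx1 and Runx2 are known as genes that the surge of luteinising hormone (LH) induces in granulosa cells of ovulating follicles, and Runx2 is also known from the corpus luteum that forms from them.

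The start regions of the paralogs are shown first, because one stretch of 18 bases is common to all 3 Runx genes. In RefSeq windows on GRCm38.p6 that run from 250 bases before to 50 bases after a transcript start, the stretch lies in the window of Runx2, in that of the more upstream of the 2 listed starts of Runx1, and in that of the more upstream of the 2 listed starts of Runx3. Each line gives 30 bases 5′ to 3′ on the strand of the gene, with the shared stretch in capitals.
Runx1, chr16:92826025-92826054, minus strand: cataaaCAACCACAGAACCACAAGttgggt
Runx2, chr17:44814583-44814612, minus strand: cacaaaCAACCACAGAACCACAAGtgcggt
Runx3, chr4:135120503-135120532, plus strand: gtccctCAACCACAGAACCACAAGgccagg

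The stretch holds ACCACA at 2 places, which is the other-strand reading of TGTGGT, the core letters of a RUNX site. Counted from 1 at the listed start, it begins at base 27 in Runx1 and at base 22 in Runx2, and in Runx3 it begins before the start, at -136. Of 32544 windows of 300 bases, 4 held the stretch on either strand (0.0123%), and the fourth is the window of Gm16225, a gene that starts beside Runx3 on the opposite strand. A RUNX site (TGTGGT on either strand) was found in 16.7% of all windows and 2 of them with starts at most 10 bases apart in 0.138%. The Runx2 window held another site further upstream, at -80. No RUNX site was found in the windows of the downstream starts of Runx1 and Runx3 or in that of Cbfb. These windows were also richer in G and C, with 69.0% in Runx1, 77.3% in Runx3 and 69.7% in Cbfb, against 45% and 45.3% in the windows with the shared stretch of Runx1 and Runx2 and 63.7% in that of Runx3. GGTCA, the repeated part of an estrogen response element, was present in the Runx2 window as in 40.5% of all windows. These are matches of letters in short windows and not sites of binding.

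Runx2 (ENSMUSG00000039153, chromosome 17 of GRCm38 from 44495987 to 44814797, minus strand) is the paralog with the largest distance between the genotypes. WT replicates 1 to 5 held 36.8, 7.52, 11.1, 30.7 and 54 FPKM (fragments per kilobase of transcript, scaled to library depth). ERβKO replicates 1 to 4 held 2.22, 1.55, 2.59 and 2.90 FPKM. The groups did not overlap, and the lowest WT ovary stood 2.59-fold above the highest ERβKO ovary. WT replicates 2 and 3 were the low ovaries of their group. The means were 28 ± 19 FPKM (SD, n = 5) in WT and 2.32 ± 0.58 FPKM (SD, n = 4) in ERβKO, a 12.1-fold difference, and from the counts the log2 fold change of ERβKO over WT came to -3.57 (SE 0.60, the standard error). These values rest on 820 to 5201 counts in WT and 166 to 311 counts in ERβKO libraries. Without WT replicates 4 and 5, whose library numbers are over 200 while all others are under 200, the log2 fold change of Runx2 was -2.92.

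Runx2 also varied within each genotype. The highest WT ovary had 7.19 times the level of the lowest, and the coefficient of variation was 68.3%. The SD of its log2 CPM (counts scaled to library size) was 1.2, higher than that of 99.6% of the 14178 tested genes with a mean over 1 FPKM in a genotype. In ERβKO ovaries the highest level was 1.87 times the lowest, the coefficient of variation was 25.1%, and the SD of log2 CPM was 0.59, still higher than that of 96.6% of these genes. By mean FPKM, Runx2 stood above 85.7% of these genes in WT and above 14.6% of them in ERβKO.

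Runx1 (ENSMUSG00000022952, chromosome 16 from 92601466 to 92826149, minus strand) differed less and varied less. WT replicates 1 to 5 held 8.19, 6.70, 12.6, 8.15 and 7.87 FPKM, and ERβKO replicates 1 to 4 held 4.95, 4.08, 4.49 and 4.04 FPKM. The genotypes did not overlap here either, with the lowest WT ovary 1.36-fold above the highest ERβKO ovary, and WT replicate 3 stood above the other 4 WT ovaries. The means were 8.71 ± 2.3 FPKM (SD, n = 5) and 4.39 ± 0.42 FPKM (SD, n = 4), a 1.98-fold difference, and from the counts the log2 fold change came to -0.99 (SE 0.16), or -0.83 without WT replicate 3. The counts behind these values were 766 to 1454 in WT and 447 to 647 in ERβKO libraries.

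Runx3 (ENSMUSG00000070691, chromosome 4 from 135120652 to 135177990, plus strand) was near the limit of what these libraries measure, with 23 to 34 counts in a library. WT replicates 1 to 5 held 0.339, 0.324, 0.320, 0.301 and 0.383 FPKM, and ERβKO replicates 1 to 4 held 0.262, 0.242, 0.354 and 0.465 FPKM. The genotypes overlapped, and the WT ovary was the higher in 11 of 20 WT and ERβKO pairs. From the counts the log2 fold change came to -0.05 (SE 0.24). A difference in Runx3 within that error was not detectable at this depth.

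Cbfb (ENSMUSG00000031885, chromosome 8 from 105170674 to 105217989, plus strand) is the gene of the common partner. The WT ovaries held 31.3, 24.8, 30.8, 27.0 and 30.8 FPKM in order of replicate, and the ERβKO ovaries 26.4, 24.3, 24.4 and 29.2 FPKM. The ranges overlapped, although the WT ovary was the higher in 17 of 20 pairs. On the log2 scale ERβKO differed from WT by -0.17 (SE 0.094), with means of 28.9 ± 2.9 FPKM (SD, n = 5) and 26.1 ± 2.3 FPKM (SD, n = 4).

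**Figure D1:**
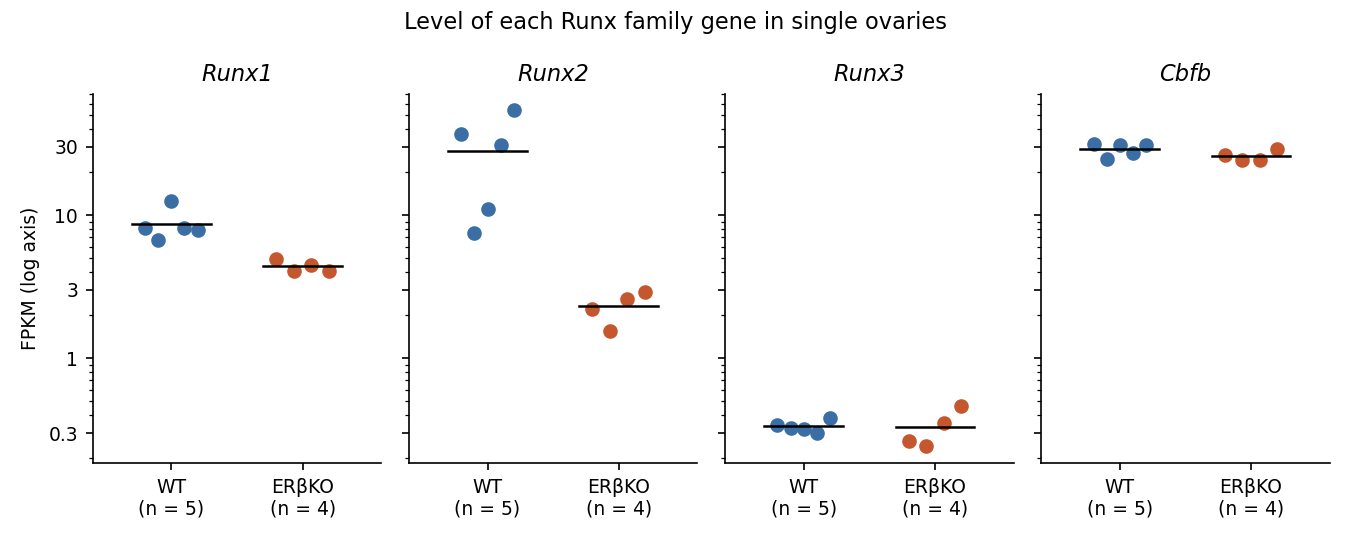
FPKM of each gene on a log axis, with 1 point per ovary (blue, 5 WT; orange, 4 ERβKO) and the group mean as a black line. The ERβKO points of Runx1 (4.04 to 4.95) and Runx2 (1.55 to 2.90) lie below every WT point, while the ranges of Runx3 and of Cbfb overlap between the genotypes.

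Differentially expressed genes (DEGs) were called with the quasi-likelihood test of edgeR over all tested genes. A DEG needed a Benjamini-Hochberg (BH) adjusted p under 0.05, a log2 fold change beyond 0.4 in either direction, and more than 1 FPKM on average in a genotype. DEGs made up 1.72% of the tested genes, with 0.801% lower and 0.915% higher in ERβKO ovaries. Runx1 and Runx2 are 2 of them and Runx3 and Cbfb are not, a count that the choice of the family had fixed. All WT ovaries were above all ERβKO ovaries in 3.31% of the tested genes, and all ERβKO ovaries above all WT ovaries in 4.29%. An unadjusted p under 0.05 was reached by 19.8% of the tested genes.

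Genes whose exons overlap those of Runx1 and Runx2 on the other strand had few counts. Supt3, on the strand opposite to Runx2, overlaps its locus without sharing exon bases and had 250 to 420 counts in a library. Of the exon bases of Runx2, 5.87% are shared with the opposite-strand gene Runx2os1, which had 0 to 8 counts in a library, and of those of Runx1 0.881% are shared with Gm26626, which had 0 to 1. The exons of Runx3 and Cbfb overlap no other gene in the GENCODE annotation of the same build.

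The make-up of the family was compared as the share of each paralog in the summed FPKM of Runx1, Runx2 and Runx3. FPKM is a unit per length of transcript. Runx2 took 81.2, 51.7, 46.3, 78.4 and 86.7% in WT replicates 1 to 5 and 29.9, 26.4, 34.8 and 39.2% in ERβKO replicates 1 to 4. Runx1 took 18.1, 46.1, 52.4, 20.8 and 12.6% in WT and 66.6, 69.4, 60.4 and 54.5% in ERβKO ovaries. Runx2 was therefore the more abundant paralog in 4 of 5 WT ovaries, WT replicate 3 being the exception, and Runx1 in 4 of 4 ERβKO ovaries. The order within WT depends on the unit, since Runx2 was above Runx1 in 3 of 5 WT ovaries by the deposited coverage per base and in 5 of 5 by counts per kilobase of annotated exons, while in ERβKO ovaries Runx1 was the higher by each of these units. Runx3 held 0.615 to 2.23% of the sum in WT and 3.53 to 6.27% in ERβKO ovaries.

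**Figure D2:**
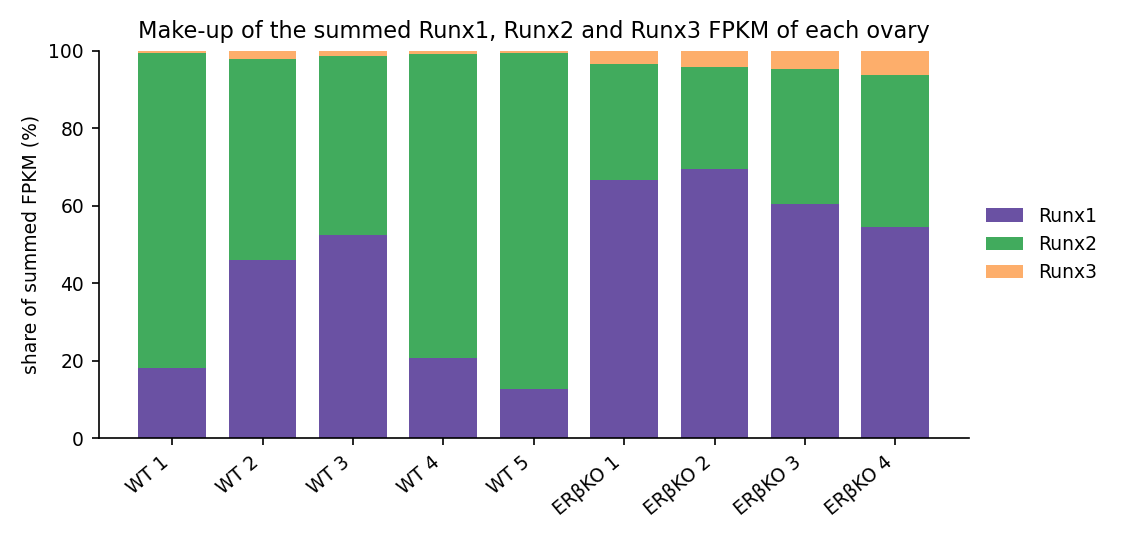
Stacked bars of the percent of the summed Runx1, Runx2 and Runx3 FPKM that each gene holds, 1 bar per ovary. Runx2 (green) holds 46.3 to 86.7% of the WT bars and 26.4 to 39.2% of the ERβKO bars, and Runx1 (purple) fills most of the rest.

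The summed FPKM of the 3 DNA-binding paralogs was 45.3, 14.5, 24.1, 39.2 and 62.3 in WT replicates 1 to 5 and 7.43, 5.87, 7.43 and 7.41 in ERβKO replicates 1 to 4. The ratio of Cbfb to this sum was 0.494 to 1.70 in WT and 3.29 to 4.14 in ERβKO ovaries. On the FPKM scale, transcripts of the partner were thus fewer than those of the paralogs together in WT replicates 1, 4 and 5, and more in WT replicates 2 and 3 and in 4 of 4 ERβKO ovaries. This ratio was computed in FPKM alone, and the order could differ in another unit, as that of Runx1 and Runx2 did within WT. Transcript ratios do not give the ratio of the proteins.

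Genes were ranked by the likeness of their profile over the ovaries to that of Runx2. Likeness was the root mean square difference of log2 CPM profiles, each centred on its own mean, over 14175 other genes with a mean over 1 FPKM. Over 9 ovaries the nearest genes were Lrp8, a receptor of the LDL receptor family (0.413), Rab27a, a small GTPase of secretory vesicles (0.472), Ssu2 (0.474), Lrrn1, a leucine-rich repeat membrane protein (0.509), and Cemip, a hyaluronan-degrading protein (0.639), where the median gene was at 1.86. These genes were picked over both genotypes, so their low ERβKO values come with the choice. Lrp8 had 23.8, 3.61, 3.35, 13.4 and 23.1 FPKM in WT and 1.04 to 2.51 FPKM in ERβKO ovaries. Rab27a had 29.5, 8.26, 10.8, 29.2 and 49.7 FPKM in WT and 2.80 to 5.28 FPKM in ERβKO ovaries. Runx1 ranked 240 in this order, at 1.46, and over the 5 WT ovaries alone it ranked 8585, at 1.14. The Runx2 profile itself had a root mean square of 1.85 over 9 ovaries and 1.11 over the WT ovaries. A gene flat over the ovaries would stand at these values. The measure thus weighs the size of a profile as well as its shape.

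Within the 5 WT ovaries alone, which leaves the genotype out, the nearest genes to Runx2 were Parvb, an adaptor of integrin adhesions (0.141), Rab27a (0.156), Dpysl4, a protein of the collapsin response mediator family (0.175), Enpp6, a choline-releasing phosphodiesterase (0.190), and Rgs7, a regulator of G protein signalling (0.194), where the median was 1.12. Parvb had 26.1, 5.32, 8.66, 22.2 and 43.2 FPKM in WT replicates 1 to 5, the same order of ovaries as Runx2, and 5.77 to 6.88 FPKM in ERβKO ovaries. The ERβKO values were not used to choose these genes, but the WT values were, and they also enter the fold changes below. The genotypes overlapped for Parvb, Dpysl4, Enpp6 and Rgs7 and not for Rab27a. Rab27a was a DEG of edgeR, lower in ERβKO, while Parvb, Dpysl4, Enpp6 and Rgs7 were not. Of 16 alternatives, 8 called Rab27a, 2 Parvb, 3 Dpysl4, 2 Enpp6 and 0 Rgs7. The log2 fold changes were -2.76 (SE 0.52) for Rab27a, -1.50 (0.46) for Parvb, -2.11 (0.55) for Dpysl4, -1.83 (0.58) for Enpp6 and -0.58 (0.49) for Rgs7. Without WT replicate 2 the same test made DEGs of 919 genes in place of 287, and without ERβKO replicate 2 of 60.

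**Figure D3:**
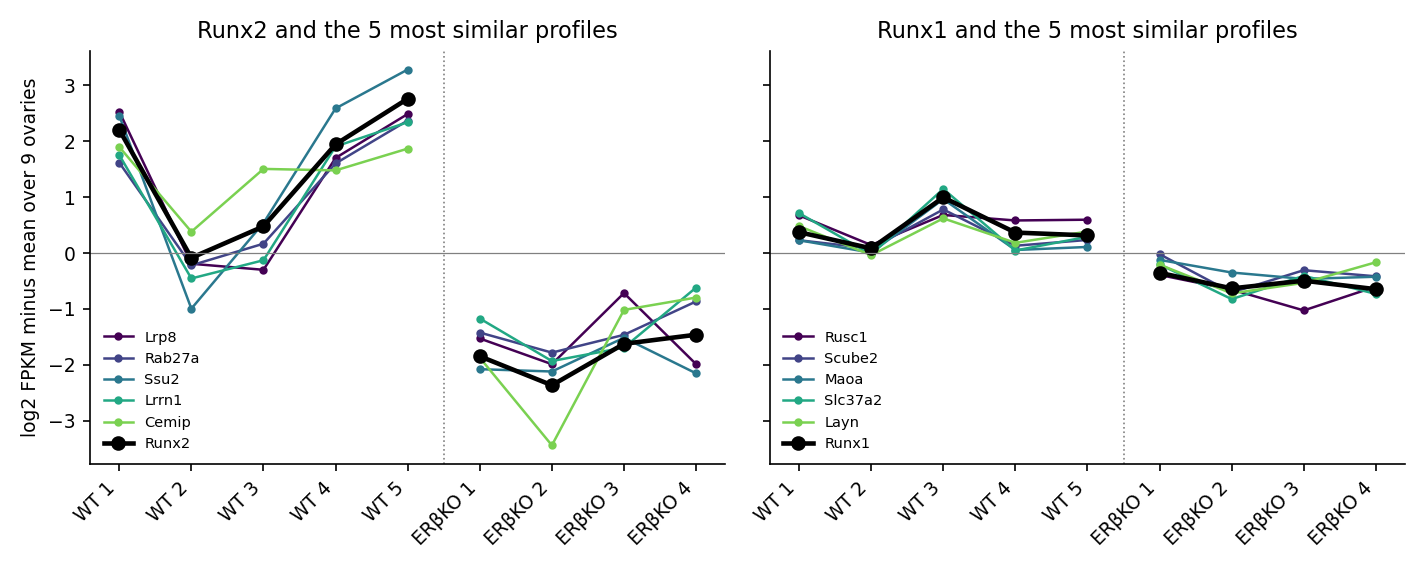
Log2 FPKM of each gene minus its mean over the 9 ovaries, for Runx2 (left) and Runx1 (right) in black with the 5 genes whose log2 CPM profiles were nearest. The 7.19-fold spread of Runx2 within WT contrasts with the 1.88-fold spread of Runx1, and the low WT ovaries of Runx2 are replicates 2 and 3.

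The genes nearest to Runx1 over 9 ovaries were Rusc1 (0.117), Scube2 (0.168), Maoa, monoamine oxidase A (0.196), Slc37a2, a sugar phosphate transporter (0.200), and Layn, a hyaluronan receptor (0.205), with a median gene at 0.555. Within WT the nearest were Iqgap3 (0.0398), Spc25, a kinetochore subunit (0.0465), Zfp367 (0.0477), Nrm, a protein of the nuclear envelope (0.0497), and Nmb, neuromedin B (0.0545). Each of these 5 was highest in WT replicate 3, as Runx1 was. Spc25 had 5.95, 4.63, 8.78, 5.90 and 5.48 FPKM in WT replicates 1 to 5 and 5.51 to 7.25 FPKM in ERβKO ovaries. Their log2 fold changes ran from -0.12 to 0.39 and 0 of the 5 were DEGs in edgeR, in DESeq2 or under any other alternative, or had an unadjusted p under 0.05 in edgeR. Neither list of Runx1 shares a gene with the lists of Runx2.

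The neighbours of the 4 genes on the chromosomes were looked at next, a choice made after their values had been seen. Each Runx gene lies beside a member of the Clic family of chloride intracellular channel proteins, Clic6 at 60.2 kb from Runx1, Clic5 at 216 kb from Runx2 and Clic4 at 36 kb from Runx3. Of 17 neighbours with a mean over 1 FPKM, 0 were DEGs in edgeR and 0 in DESeq2, against 1.72% and 4.78% of all tested genes, and 3 had an unadjusted p under 0.05 in the quasi-likelihood test of edgeR, near the 19.8% of all tested genes. Clic6 and Clic5 had log2 fold changes of 0.34 (SE 0.17) and -0.33 (0.15), and Clic4 of -0.01 (0.063). Supt3, a gene of the SAGA complex that overlaps the Runx2 locus, had 9.49 to 12.4 FPKM in WT and 9.64 to 13.8 FPKM in ERβKO ovaries, with a log2 fold change of 0.03 (SE 0.13).

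Genes that work with, hold back or respond to the Runx factors were taken from 8 lists. The lists were written with earlier results of these data known, so the shares below describe them and test no enrichment. Of the genes on these lists, 95 were tested and 5 were DEGs in edgeR, 5.26% of those tested against 1.72% of all tested genes. The study's tool, DESeq2, called 12 of the 95 (12.6%) where it called 4.78% of all tested genes. The median log2 fold change of all tested genes was -0.001. Leaving out 1 ovary moved the 5 DEGs to between 2 and 14, with 14 without WT replicate 2, 2 without WT replicate 1 or 5 or ERβKO replicate 2 or 3, and 3 without WT replicate 4 or ERβKO replicate 4.

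Corepressors held no DEG in edgeR and 3 in DESeq2. They are the Groucho proteins (Tle1 to Tle4 and Aes), the Sin3, histone deacetylase and NCoR proteins, and the ETO family, of which Runx1t1 is known as the fusion partner of RUNX1 in leukaemia. Of the 16 tested genes 8 had an unadjusted p under 0.05 (19.8% of all tested genes did), with 2 lower and 6 higher in ERβKO, and the median log2 fold change of the list was 0.04. Aes had 148 to 288 FPKM in WT and 130 to 158 FPKM in ERβKO ovaries (log2 fold change -0.58, SE 0.18), and Ncor1 34.9 to 47.5 and 39.8 to 45.5 FPKM (0.02, SE 0.073). Cbfa2t3, an ETO family gene outside the naming rule, was picked after its values were seen, with 2.84 to 4.42 FPKM in WT and 4.85 to 11.3 FPKM in ERβKO ovaries. Its groups did not overlap, but at a log2 fold change of 0.98 (SE 0.24) it missed the threshold (BH adjusted p = 0.0618, quasi-likelihood test of edgeR).

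Among coactivators and binding partners 1 of 19 tested genes was a DEG and the median log2 fold change was -0.02. Cebpa, which encodes a basic leucine zipper factor of granulocyte and fat cell differentiation, rose from 4.18, 6.04, 5.18, 4.18 and 4.28 FPKM in WT to 12.9, 10.2, 12.3 and 5.51 FPKM in ERβKO ovaries. ERβKO replicate 4 lay within the WT range. Cebpa had a log2 fold change of 1.09 (SE 0.22) and a BH adjusted p = 0.0363 (quasi-likelihood test of edgeR), and it was called under 6 of 16 alternatives.

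Inhibitors of RUNX2, such as the Twist proteins, which cover its Runt domain, held no DEG in edgeR or DESeq2 among 7 tested genes, and 1 had an unadjusted p under 0.05. Hey1, a Notch target, had 2.28 to 5.88 FPKM in WT and 3.99 to 4.52 FPKM in ERβKO ovaries, with a log2 fold change of 0.36 (SE 0.24).

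Enzymes that modify RUNX proteins held 2 DEGs among 12 tested genes, in opposite directions, and a median log2 fold change of -0.02. Wwp1, a ubiquitin ligase that with its relatives marks RUNX2 for degradation, fell from 11.1, 11.0, 13.4, 10.9 and 11.5 FPKM in WT to 9.53, 8.85, 8.69 and 8.53 FPKM in ERβKO ovaries. Wwp1 had a log2 fold change of -0.41 (SE 0.072), just past the size required, and a BH adjusted p = 0.0221 (quasi-likelihood test of edgeR). Hipk2, a nuclear kinase that phosphorylates RUNX1, rose from 7.26, 7.95, 5.92, 6.41 and 6.35 FPKM to 8.28, 9.57, 12.2 and 9.84 FPKM, with a log2 fold change of 0.54 (SE 0.12) and a BH adjusted p = 0.0457 (quasi-likelihood test of edgeR). The genotypes did not overlap for either gene. Wwp1 was called under 6 and Hipk2 under 5 of 16 alternatives.

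**Figure D4:**
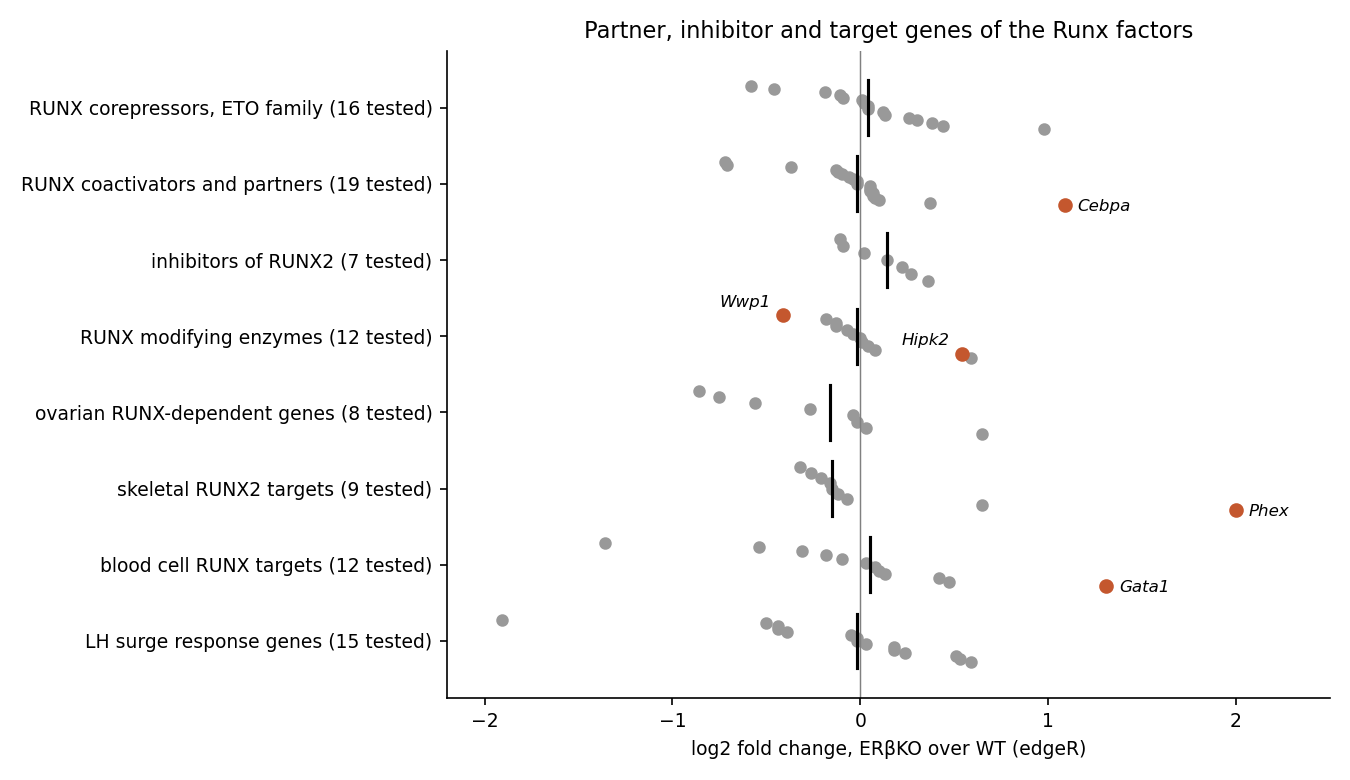
Log2 fold change of ERβKO over WT for each tested gene of the 8 lists, with DEGs of edgeR in orange and named, other genes in grey and the median of each list as a black bar. The medians lie between -0.16 and 0.14, and 4 of the 5 DEGs lie above 0.

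Target genes were described by the tissue in which they are known. Of 8 tested ovarian genes that depend on RUNX1 or RUNX2 by report, 0 were DEGs in edgeR and 1 in DESeq2, 1 had an unadjusted p under 0.05, and the median log2 fold change was -0.16. Cyp11a1, the side chain cleavage enzyme that starts steroid synthesis, had 1865, 872, 1061, 1118 and 1851 FPKM in WT and 680, 608, 1088 and 634 FPKM in ERβKO ovaries. Its ovaries overlapped through ERβKO replicate 3 alone, and the log2 fold change was -0.86 (SE 0.28). Mt1, a metallothionein, had 87.5 to 124 FPKM in WT and 98.2 to 112 FPKM in ERβKO ovaries (log2 fold change -0.04, SE 0.11).

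Of 16 bone and cartilage targets of RUNX2, 7 did not pass the filter on low counts, among them Sp7, Bglap and Ibsp. Of the 9 tested, 1 was a DEG and the median log2 fold change was -0.15. Phex, a membrane peptidase of phosphate handling on the X chromosome, had 0.866, 1.05, 0.314, 1.46 and 0.805 FPKM in WT and rose to 3.99, 3.00, 4.30 and 4.09 FPKM in ERβKO ovaries. The groups did not overlap, and the direction is opposite to that of Runx2. Phex had a log2 fold change of 2.00 (SE 0.30) and a BH adjusted p = 0.0127 (quasi-likelihood test of edgeR), and it was called under 15 of 16 alternatives.

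Among blood cell targets of RUNX1 and RUNX3, 12 of 20 were tested, 1 was a DEG, and the median log2 fold change was 0.05. Gata1, known from red cells and from Sertoli cells, rose from 1.61, 1.26, 1.55, 1.51 and 1.16 FPKM in WT to 3.13, 3.02, 3.47 and 4.73 FPKM in ERβKO ovaries, with no overlap. Gata1 had a log2 fold change of 1.31 (SE 0.20) and a BH adjusted p = 0.0135 (quasi-likelihood test of edgeR), and it was called under 14 of 16 alternatives. Csf1r and Spi1, known RUNX1 targets in macrophages, had log2 fold changes of 0.08 (SE 0.15) and 0.03 (SE 0.20).

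The LH surge induces Runx1 and Runx2 together with a wider set of genes, of which 15 of 19 were tested. Among them 0 were DEGs in edgeR and 1 in DESeq2, 1 had an unadjusted p under 0.05, and the median log2 fold change was -0.02. Ptgs2, an acute gene of the surge, had 0.339 to 1.06 FPKM in WT and 0.469 to 0.810 FPKM in ERβKO ovaries. Star, which carries cholesterol into mitochondria and stays high in luteal cells, had 217, 73.8, 185, 187 and 324 FPKM in WT and 66.5, 34.9, 85.4 and 26.7 FPKM in ERβKO ovaries. WT replicate 2 was the low WT ovary of Star as it was of Runx2. WT replicate 3, the other low WT ovary of Runx2, was not low in Star, at 185 FPKM beside 187 FPKM in WT replicate 4. Star had a log2 fold change of -1.91 (SE 0.45) and a BH adjusted p = 0.0573 (quasi-likelihood test of edgeR). Ctsl, a lysosomal protease and the most abundant gene of this list, had 306 to 417 FPKM in WT and 385 to 439 FPKM in ERβKO ovaries.

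Cell type markers were read beside the Runx genes, since granulosa and luteal cells are known to express Runx1 and Runx2 and leukocytes to express all 3 paralogs. The summed level of 10 luteal markers was 3133 to 6740 FPKM in WT and 2588 to 4076 FPKM in ERβKO ovaries. Of these 10, 9 had log2 fold changes below 0, 0 were DEGs in edgeR and 3 in DESeq2, 5 had an unadjusted p under 0.05 (19.8% of all tested genes did), and the median was -0.86. Star and Cyp11a1 are on this list as well as on those above. The mean log2 CPM of the luteal markers was 9.57, 8.63, 8.53, 8.65 and 9.60 in WT replicates 1 to 5 and 7.26, 7.18, 9.25 and 8.08 in ERβKO replicates 1 to 4. The WT ovaries with the highest luteal level, replicates 1 and 5, also had the highest Runx2. WT replicates 2 and 4 had near luteal levels, 8.63 and 8.65, with Runx2 at 7.52 and 30.7 FPKM. In ERβKO replicate 3 the luteal level was above that of WT replicates 2, 3 and 4. Runx2 was at 2.59 FPKM in ERβKO replicate 3, against 7.52, 11.1 and 30.7 FPKM in those WT ovaries. Akr1c18, a progesterone-degrading enzyme, had 471 FPKM in ERβKO replicate 3 and 3.27 FPKM in WT replicate 4. Without Akr1c18 the luteal level of ERβKO replicate 3 was 9.21, against 8.82, 8.88 and 9.34 in WT replicates 2, 3 and 4. This list was shortened after its values were seen. The part of luteal tissue in the difference of Runx2 was not tested.

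The 12 granulosa markers summed to 1040 to 1277 FPKM in WT and 1340 to 1820 FPKM in ERβKO ovaries, so the sum did not overlap and lay on the opposite side from Runx1 and Runx2. Of them, 11 had log2 fold changes above 0 (median 0.53), and 5 were DEGs in DESeq2 and 2 in edgeR, Inhbb, the inhibin βB subunit, at 1.09 (SE 0.15) and Hsd17b1, which makes estradiol from estrone, at 0.77 (SE 0.16). The 7 theca markers summed to 472 to 736 FPKM in WT and 849 to 1723 FPKM in ERβKO ovaries, with 1 DEG in edgeR and in DESeq2, Aldh1a1, at a log2 fold change of 1.05 (SE 0.16). Aldh1a1 alone held 424 to 620 FPKM in WT and 761 to 1276 FPKM in ERβKO ovaries, and the median log2 fold change of the 6 tested theca markers was 0.08. The 16 leukocyte markers summed to 172 to 311 FPKM in WT and 197 to 349 FPKM in ERβKO ovaries, with 0 DEGs in edgeR and 0 in DESeq2 among the 14 tested and a median log2 fold change of 0.06. The T and B cell markers Cd3e, Cd3d and Ms4a1 were under 1 FPKM in every ovary, as Runx3 was, while Cd3g reached 1.49 FPKM and Cd79a 1.12 FPKM in their highest ovaries. Stromal, surface epithelial, endothelial and oocyte markers held 0 DEGs in edgeR and 0 in DESeq2, with medians of 0.04, 0.17, -0.09 and 0.39 and 2, 1, 1 and 0 genes at an unadjusted p under 0.05.

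**Figure D5:**
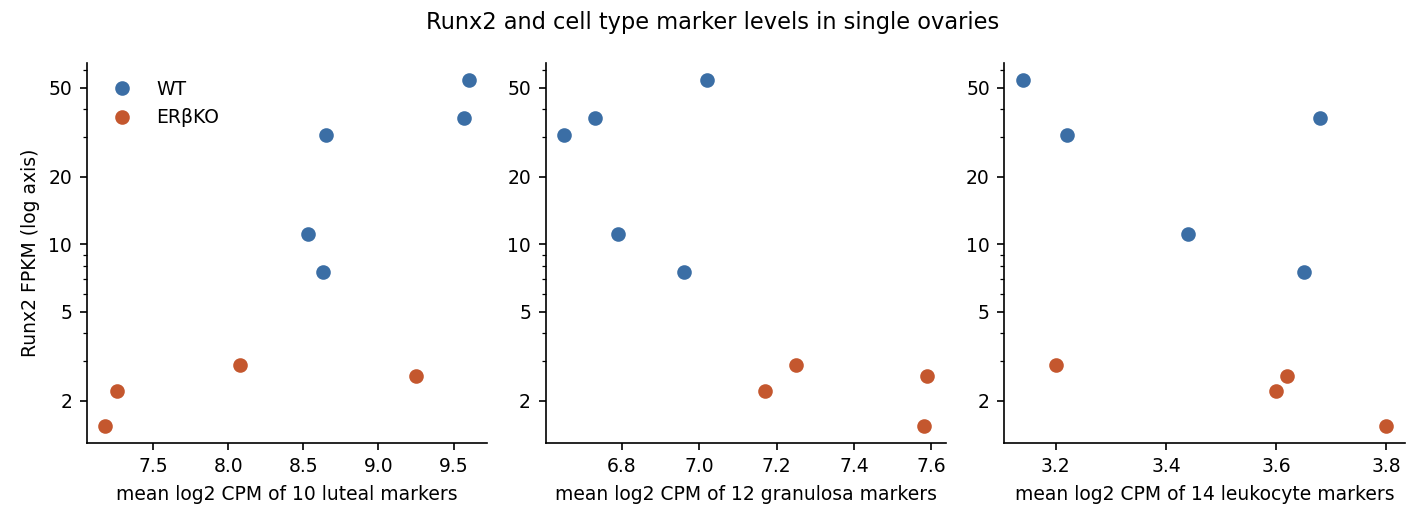
Runx2 FPKM (log axis) against the mean log2 CPM of luteal, granulosa and leukocyte markers, with 1 point per ovary (blue, 5 WT; orange, 4 ERβKO). The ERβKO ovary at a luteal level of 9.25 has 2.59 FPKM of Runx2, below the WT ovaries at 8.53, 8.63 and 8.65 (11.1, 7.52 and 30.7 FPKM).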

How the data were processed

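Each of 5 WT and 4 ERβKO mice gave 1 RNA-seq library of the ovary. The authors trimmed the reads with Trim Galore, mapped pairs of 150 bp to GRCm38 with STAR and deposited raw counts per gene from featureCounts, not normalized. The strand setting of featureCounts is not given in the sources used here. FPKM, TPM and coverage per base of each gene were deposited from StringTie. The authors scaled FPKM to transcript length and library depth and TPM to a fixed total, and left the deposited coverage unscaled for depth.

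Counts were filtered with filterByExpr, normalized by TMM and compared with edgeR's quasi-likelihood test (edgeR 4.0.16, R 4.3.3) with Benjamini-Hochberg adjustment over 16722 genes. DESeq2 1.42.0, the study's tool, and limma 3.58.1 on log2(FPKM + 1) or log2(FPKM + 0.1), with these pseudocounts, were alternatives. The standard error was taken from the fold change and its F statistic. The common biological coefficient of variation was 0.179. DEGs followed the study's thresholds. Lists and shares were computed in Python 3.11.15 (NumPy 2.4.6, pandas 2.3.3).

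The 4 members, the 8 functional and 8 marker lists and the tests were chosen with earlier results of these data known. Named genes were the members, Esr2, the DEGs of each functional list (up to 5) or its 2 most abundant genes, and the 5 genes nearest to Runx1 and to Runx2 by log2 CPM profile over 9 and over 5 ovaries. Of the genes this rule names, 1 is left out of the text. From the functional lists, Cbfa2t3, Ptgs2, Csf1r and Spi1 are given with values although the rule does not name them. The other alternatives were DESeq2's size factors in edgeR, no filter, the replicate number as a block, each ovary left out and the libraries numbered under 200, and for the shares TPM, raw counts, coverage and counts per kilobase of GENCODE exons (the last 2 chosen after seeing the data). On simulated counts for 5 against 4 libraries and 16560 genes, 200 genes were changed. Of these, edgeR found 99% with 6.60% false calls, and DESeq2 100% with 10.7%. Every simulated gene had the common biological coefficient of variation, so these rates do not carry over to genes that vary more, such as Runx2. In 37531 of 45137 shared genes the coordinates of the files and of GENCODE M21 were identical.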

Additional observations from a re-analysis of the deposited data

Results flagged for a closer look

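Among 34 groups of single-ovary FPKM values, 4 held an ovary far from the rest of its genotype, where chance gives about 1 in 20. Runx1 stood at 12.6 FPKM in WT replicate 3 against 6.70 to 8.19 FPKM in the other WT ovaries. In the same ovary Wwp1 stood at 13.4 FPKM against 10.9 to 11.5 FPKM. Hey1 stood at 5.88 FPKM in WT replicate 2 against 2.28 to 3.29 FPKM in the other WT ovaries. Cyp11a1 stood at 1088 FPKM in ERβKO replicate 3 against 608 to 680 FPKM in the other ERβKO ovaries.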

How the results depend on the processing

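The log2 fold change of Runx1 lay between -1.08 and -0.82 and that of Runx2 between -3.82 and -2.83 over 16 alternatives, below 0 in all of them. Runx1 was called under 13 of these 16 alternatives and Runx2 under 12. Neither was called without ERβKO replicate 2, without ERβKO replicate 4 or in the libraries numbered under 200. Runx2 was also not called without ERβKO replicate 3. The family was chosen on this contrast in the same ovaries, so these calls describe the processing and are no test of the members. Runx3 ran from -0.25 to 0.09 over 14 alternatives and Cbfb from -0.24 to -0.13 over 16. With 4 or 5 ovaries a group, losing 1 moved the number of DEGs from 287 to between 60 (without ERβKO replicate 2) and 919 (without WT replicate 2), and that of list genes from 5 to between 2 and 14. DESeq2 gave 800 DEGs and 12 list genes, of which 5 were the DEGs of edgeR. The libraries numbered under 200 gave 51 DEGs and 1 list gene. Limma gave 2 list genes with either pseudocount. No filter gave 388 DEGs and 7 list genes. The cause of these shifts was not tested. By coverage per base the mean share of Runx2 in the Runx sum of ERβKO ovaries was 17.3% in place of 32.6%.

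Same-numbered ovaries were not treated as pairs in the main test. Their deviations from the group means correlated at 0.0948, 0.130, -0.0427 and -0.0105 over all genes. Whether they share more than a number is not given in the sources used here. With the replicate block, which leaves out WT replicate 5, 155 genes were DEGs and 0 of the list genes, of which 21 of 95 had an unadjusted p under 0.05 in edgeR, and the log2 fold change of Runx2 was -2.95.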
